A study of Mus musculus with 6 samples.

Results

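The genes described here are the variable (V) segments of the mouse immunoglobulin light chains, chosen as every gene of the deposited expression table whose name begins with Igkv (kappa) or Iglv (lambda). There were 163 of them among 56496 genes, 160 kappa segments on chromosome 6 and 3 lambda segments on chromosome 16. GENCODE M21, an annotation of the GRCm38 mouse genome, listed 103 as functional V genes and 60 as pseudogenes. RNA-seq had been run on bone marrow cells of female BALB/c mice of wild-type label, all of them after surgical removal of a 4T1 tumour (4T1 is a cell line from a mammary carcinoma of the mouse). The Onway group (libraries Onway 1, Onway 2 and Onway 3, labelled day 14) had received Onway through a feeding tube into the stomach (gavage) for 2 weeks, and the Control group (libraries Control 4, Control 5 and Control 6, labelled day 0) had not, so the effects of dosing and of labelled day cannot be told apart. No composition of Onway is given by the labels. They also do not state that the libraries are separate mice, so every p-value reflects only the spread among 6 libraries, which may be technical. The extraction protocol also carries a passage on culture with dexamethasone and insulin, and whether it was applied to these cells is not stated.

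A light chain is assembled in a developing B cell when RAG1 and RAG2 cut the DNA and a V segment is joined to a joining (J) segment, which is then spliced to a constant (C) gene. Each B cell normally keeps 1 light chain, from either the kappa or the lambda locus, and a plasma cell, the antibody-secreting stage, makes very large amounts of its RNA. In the mouse most light chains are kappa, and the lambda locus is small. The level of a V segment in marrow RNA therefore adds up naive B cells that chose it and plasma cells that secrete it, and in bulk RNA more cells of a type and more RNA per cell cannot be told apart.

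Neighbouring V segments are close copies of each other, and reads from BALB/c mice had been assigned to the reference strain C57BL/6J. Among the 106 segments that were tested, the median identity to the closest other member was 94.5%, and 50 of the 106 had a relative at 95% or more. The sources used here do not say how reads were divided between copies, so values of single segments with such relatives are uncertain. The pairs printed here are the segments on which the results turn, each beside a relative. They are the last 120 bases of the annotated transcript in GENCODE M21 (GRCm38), 5′ to 3′ on the coding strand. These bases encode most of the third framework region and the germline start of the third complementarity-determining region. Capitals mark the bases that differ within a pair.
Igkv1-88 (chr6:68862265-68863031, minus strand): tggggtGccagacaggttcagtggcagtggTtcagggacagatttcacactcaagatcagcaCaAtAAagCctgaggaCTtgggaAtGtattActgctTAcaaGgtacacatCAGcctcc
Igkv1-110 (chr6:68270485-68271267, plus strand): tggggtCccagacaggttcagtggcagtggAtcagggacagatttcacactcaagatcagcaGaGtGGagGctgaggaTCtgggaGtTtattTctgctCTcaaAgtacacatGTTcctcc
Igkv10-96 (chr6:68631963-68632442, minus strand): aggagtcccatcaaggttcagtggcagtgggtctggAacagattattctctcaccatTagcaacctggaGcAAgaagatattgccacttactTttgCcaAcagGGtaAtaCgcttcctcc
Igkv10-94 (chr6:68704508-68704978, minus strand): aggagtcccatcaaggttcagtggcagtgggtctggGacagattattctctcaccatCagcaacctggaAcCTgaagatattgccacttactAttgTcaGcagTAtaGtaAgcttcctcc
Iglv1 (chr16:19085017-19085500, minus strand): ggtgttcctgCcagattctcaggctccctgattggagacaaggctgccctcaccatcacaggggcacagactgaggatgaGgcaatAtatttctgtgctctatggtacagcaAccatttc
Iglv2 (chr16:19260401-19260859, minus strand): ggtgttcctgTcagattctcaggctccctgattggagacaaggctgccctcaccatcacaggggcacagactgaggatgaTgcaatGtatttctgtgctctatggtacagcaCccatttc

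The kappa pair led by Igkv1-88 differed at 18 of the 120 bases, the pair led by Igkv10-96 at 12 and the lambda pair at 4. Igkv1-88 was the most isolated of the 3 leading segments. Its closest member over the whole transcript was Igkv1-110 at 84.8% identity, and it shared no window of 50 bases with any other member. Igkv10-96 reached 95.4% identity with Igkv10-94 and had 32.6% of its 50-base windows in common with other members. Iglv1 and Iglv2 were 96.7% identical.

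Of the 163 segments, 106 had a mean of at least 1 TPM (the authors' unit, in which read numbers are divided by transcript length and set to a fixed sum per library) over the 6 libraries and were tested. They were 103 kappa and 3 lambda segments, 100 of them functional and 6 pseudogenes. The 57 others comprised 45 listed at 0 in every library and 12 with values that averaged at most 0.947 TPM. The deposited table holds no read counts, so depth is unknown and no counting error can be given. The groups also differed in markers of other cells. The 5 skeletal muscle markers summed to 1.14 to 4.69 TPM in the Onway libraries, against 393 to 2479 TPM in the Control libraries, and the 4 megakaryocyte markers to 79.0 to 127 TPM, against 1707 to 1930 TPM. The 5 T cell markers summed to 40.7 to 43.8 TPM in Onway, against 35.6 to 37.5 TPM in Control, without overlap (exact permutation p = 0.1). Most of that sum was Cd3d, which overlapped, at 30.32 to 34.85 TPM in Onway and 21.18 to 31.8 TPM in Control. Of the 4 T cell markers tested, 3 had positive log2 fold changes, and Cd4 had -0.72. The part of these markers in the results was not tested. Neutrophil and erythroid markers dominated every library, with haemoglobin genes at 9.38% to 33.9% of TPM in the Onway libraries and 11.6% to 26.6% in the Control libraries.

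Control 4 stood apart from the other Control libraries in its light-chain segments, so results that turn on it are given with and without it. Across 115 kappa segments with a value, which share a library and are not independent, the Spearman correlation of levels was 0.929 between Onway 2 and Control 4 and 0.926 between Onway 3 and Control 4, but 0.826 between Control 4 and Control 5 and 0.799 between Control 4 and Control 6. Control 5 and Control 6 reached 0.909 with each other, and the Onway pairs ran between 0.861 and 0.935. Control 4 nonetheless carried the muscle and megakaryocyte levels of its labelled group, with 1068 TPM and 1930 TPM of these markers. Over all transcripts its Pearson correlation was 0.820, 0.716 and 0.996 with Onway 1, Onway 2 and Onway 3. It was 0.744 with Control 5 and 0.906 with Control 6. These values are of untransformed TPM, so the few most abundant transcripts weigh most in them. Control 4 and Onway 3 had the most haemoglobin, at 26.6% and 33.9% of TPM. The neutrophil markers summed to 92413 TPM in Control 4, 201445 TPM in Control 5 and 166116 TPM in Control 6. In Onway 1, Onway 2 and Onway 3 they summed to 177620, 182236 and 101738 TPM.

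Kappa V segments together made up 15862, 7488 and 8362 TPM in Onway 1, Onway 2 and Onway 3, against 11118, 2444 and 3692 TPM in Control 4, Control 5 and Control 6. Onway 1 was the highest library and Control 5 the lowest, and the groups overlapped because Control 4 exceeded both Onway 2 and Onway 3. The kappa sum averaged 10571 ± 4603 TPM in Onway and 5752 ± 4689 TPM in Control (SD, n = 3 each), a 2.15-fold ratio of geometric means that lay within the spread of the libraries (exact two-sided permutation p = 0.3, where the smallest p for 3 against 3 is 0.1). Without Control 4 the ratio was 3.32-fold, with all Onway libraries above both remaining Control libraries (exact permutation p = 0.2, the smallest for 3 against 2). It was 1.70-fold without Onway 1 and 1.56-fold without Control 5. The authors' deposited means, which were not those of the 3 libraries alone, were 9162 TPM in Onway and 6014 TPM in Control. Light-chain V segments of both loci took 1.63%, 0.791% and 0.866% of all TPM in the Onway libraries and 1.16%, 0.258% and 0.398% in the Control libraries.

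The 3 lambda segments together made up 390, 418 and 298 TPM in Onway 1, Onway 2 and Onway 3, against 437, 140 and 291 TPM in Control 4, Control 5 and Control 6. The highest lambda value was in Control 4, Control 6 lay just below Onway 3, and Control 5 was far below the rest. The lambda sum averaged 369 ± 62.4 TPM in Onway and 289 ± 148 TPM in Control (SD, n = 3 each), with a log2 difference of 0.48 (exact permutation p = 0.6).

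The kappa to lambda ratio of V segments was 40.7, 17.9 and 28.0 in Onway 1, Onway 2 and Onway 3, and 25.5, 17.5 and 12.7 in Control 4, Control 5 and Control 6. Onway 1 had the highest ratio and Control 6 the lowest, while Onway 2 lay beside Control 5. The mean ratio was 28.9 ± 11.4 in Onway and 18.5 ± 6.45 in Control (SD, n = 3 each), 1.54-fold apart on geometric means (exact permutation p = 0.2). In shares, lambda segments held 2.40%, 5.29% and 3.44% of light-chain V TPM in the Onway libraries and 3.78%, 5.41% and 7.30% in the Control libraries.

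**Figure D1:**
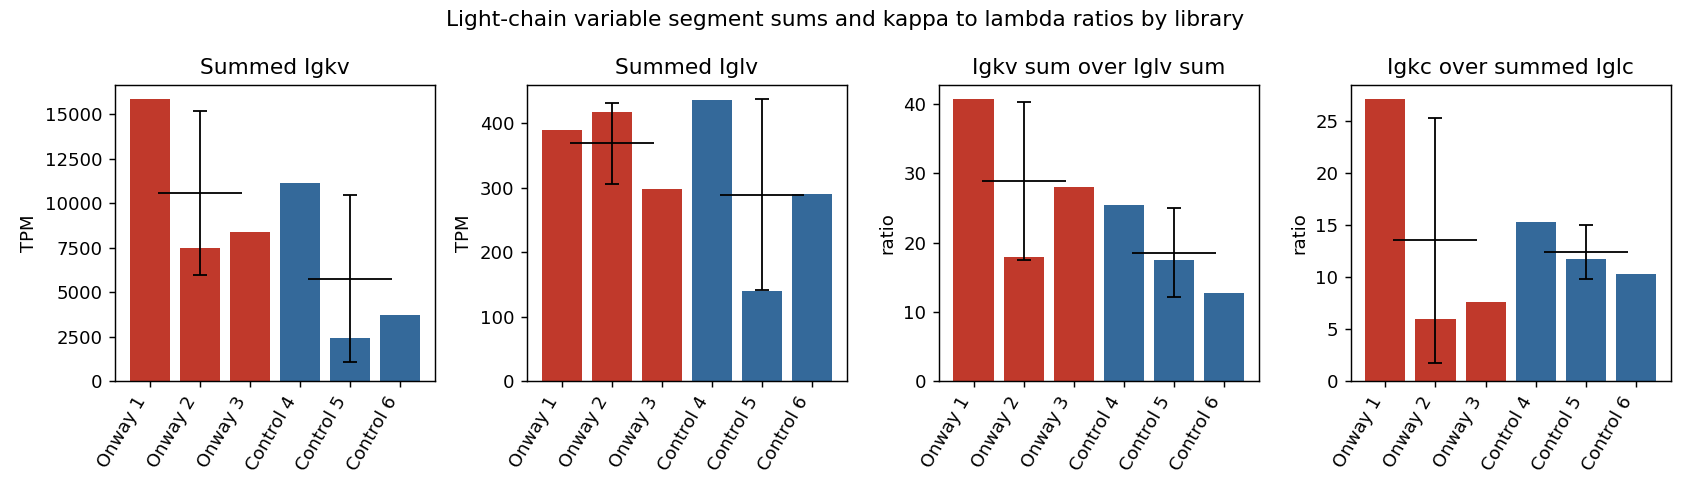
Summed Igkv TPM, summed Iglv TPM, the ratio of the sums, and the ratio of Igkc to the summed Iglc constant genes in each library; bars are single libraries (red Onway, blue Control), and black lines are group means with SD. The kappa sum of Control 4 (11118 TPM) exceeds those of Onway 2 and Onway 3, and Onway 1 has the highest of both ratios (40.7 and 27.1).

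The constant genes gave a different ratio. Igkc, the single kappa constant gene, was at 3281, 1258 and 1557 TPM in Onway 1, Onway 2 and Onway 3, against 1909, 499 and 708 TPM in Control 4, Control 5 and Control 6, in the same order of libraries as the kappa V sum (log2 fold change 1.08 ± 0.59 SE, adjusted p = 0.51 by limma). The lambda constant genes summed to 121, 210 and 206 TPM in the Onway libraries and 125, 42.4 and 69.1 TPM in the Control libraries. Igkc over Iglc was therefore 27.1, 5.98 and 7.55 in Onway and 15.3, 11.8 and 10.2 in Control. Onway 2 and Onway 3 lay below every Control library and Onway 1 above them all, with a log2 difference of -0.20 (exact permutation p = 0.9), opposite in sign to that of the V segments (0.62).

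Kappa V TPM per TPM of Igkc stayed in a narrow range, at 4.83, 5.95 and 5.37 in the Onway libraries and 5.82, 4.90 and 5.22 in the Control libraries (exact permutation p = 0.8). Lambda V TPM per TPM of Iglc was 3.21, 1.99 and 1.45 in the Onway libraries, against 3.49, 3.30 and 4.21 in the Control libraries. Each Onway library was below each Control library in the lambda measure, which gives the smallest p the design allows (exact permutation p = 0.1). Among single lambda constant genes, Iglc2 was at 99.9, 163 and 163 TPM in Onway and 97.6, 28.7 and 53.1 TPM in Control (log2 fold change 1.37 ± 0.45 SE, limma adjusted p = 0.24). Iglc1 had 21.04, 25.1 and 16.5 TPM in Onway, against 14.97, 11.5 and 5.61 TPM in Control, without overlap (log2 fold change 0.98, limma adjusted p = 0.26). Iglc3 ranged from 0.22 to 26.4 TPM in Onway and from 2.24 to 12.6 TPM in Control, and Iglc4 was listed at 0 in all libraries but Onway 2, at 0.68 TPM. All J segments were listed at 0 in every library.

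Part of the V signal sat on transcripts that the annotation does not hold. The members had 199 annotated transcripts, the longest of 501 bases, and 61 transcripts with identifiers of newly assembled models, of which 21 were at least 800 bases long. Assembled models carried 36.4%, 31.8% and 32.6% of light-chain V TPM in the Onway libraries and 25.1%, 31.4% and 32.2% in the Control libraries. For lambda, 4 such models under Iglv1 carried 40.0%, 43.9% and 56.2% of the V sum in Onway 1, Onway 2 and Onway 3, and 38.4%, 42.1% and 41.5% in Control 4, Control 5 and Control 6. On annotated transcripts alone, Igkv3-12 was listed at 0 to 0.53 TPM in Onway and at 0 in Control, Igkv6-17 was at most 1.21 TPM in Onway and 0.92 TPM in Control, and Igkv3-4 was listed at 0 in every library. Igkv3-7 kept at most 8.79 TPM in Onway and 4.16 TPM in Control. The levels given for these 4 segments are therefore mainly levels of assembled models assigned to them. Onway 3, with the highest assembled share, also had the lowest lambda V level per Iglc, and the part of these models in that measure was not tested.

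No light-chain V segment passed an adjusted p of 0.05 in either direction, whereas over all 14192 genes tested 0.233% were called higher and 2.99% lower in Onway (limma with Benjamini-Hochberg adjustment over all genes tested). At an unadjusted p under 0.05, 24 of the 106 tested segments (22.6%) were higher in Onway and 0 were lower, beside 4.95% and 8.42% of all genes tested. The log2 fold changes ran from -1.45 to 3.23 with a median of 1.02, against 0.03 over all genes tested, and 95 were positive and 11 negative. In 20 segments (18.9%) every Onway library was above every Control library, against 6.95% of all genes tested, and in 0 segments was every Onway library below, against 11.5%. Of the 106, 9 averaged under 1 TPM in Control and so passed the filter through Onway alone, among them 3 of the 20 and 4 of the 24, and 1 averaged under 1 TPM in Onway. Segments share cells and reads, so these counts describe the libraries and are not independent observations.

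Control 4 was high in most segments. It was the highest Control library in 80 of the 106 tested segments and the highest of all 6 libraries in 17, whereas Onway 1 was the highest of all in 53. Control 5 lay below the lowest Onway library in 89 segments, Control 6 in 75 and Control 4 in 35. Control 4 was singled out from these same values, so leaving it out widens the difference by construction. The calls made without it are therefore no support for a rise. Without Control 4, 14 of the 106 segments (13.2%) were called higher in Onway, against 0.618% of all genes tested in that fit (limma adjusted p under 0.05). The median log2 fold change was then 1.62. No segment was called lower in that fit, beside 2.26% of all genes. Without both Control 4 and Onway 3, the libraries with the most haemoglobin, 6 segments were called higher and 0 lower. Over all genes tested the shares were 0.687% and 1.47%, and 5 of the 6 were among the 14. Without Control 5, 1 segment was called higher, Igkv9-124, against 0.226% of all genes tested. Without Onway 1, 0 segments were called in either direction, beside 356 genes over the whole table.

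**Figure D2:**
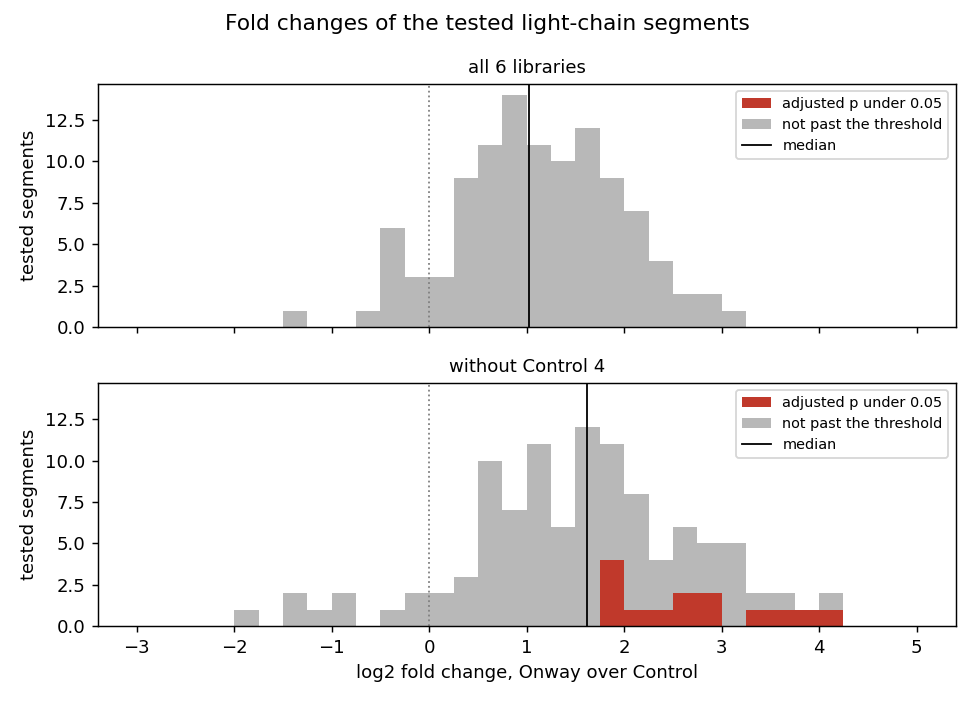
Log2 fold changes (Onway over Control) of the 106 tested light-chain V segments, with all 6 libraries above and without Control 4 below; the vertical axis counts segments, red bars passed an adjusted p of 0.05 and the black line is the median. The median is 1.02 with 0 segments past the threshold above, and 1.62 with 14 past it below.

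The 14 segments called without Control 4, named after their values were seen, were Igkv1-88, Igkv1-131, Igkv1-133, Igkv4-54, Igkv4-86, Igkv6-13, Igkv6-17, Igkv6-32, Igkv12-38, Igkv12-44, Igkv12-46, Igkv13-85, Igkv15-103 and Igkv19-93, with log2 fold changes from 1.76 to 4.06. Igkv6-13 is an example with a low value in both other Control libraries. It had 122, 218 and 283 TPM in Onway 1, Onway 2 and Onway 3, against 303 TPM in Control 4, 11.9 TPM in Control 5 and 12.3 TPM in Control 6. Control 4 was above every Onway library for this segment, and the other Control libraries were far below them. Its log2 fold change was 2.40 ± 1.36 SE with all libraries (limma adjusted p = 0.54) and 3.91 ± 0.35 SE without Control 4 (limma adjusted p = 0.0030).

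Igkv1-88, the isolated segment printed first, carried the largest single departure. Its level was 135, 86.5 and 128 TPM in Onway 1, Onway 2 and Onway 3, against 2377 TPM in Control 4, 24.7 TPM in Control 5 and 14.1 TPM in Control 6. One library thus held nearly all of the Control signal, and the other Control libraries were below every Onway library. As a share of the kappa sum it was 0.849%, 1.15% and 1.53% in the Onway libraries and 21.4%, 1.01% and 0.383% in the Control libraries. The log2 fold change was 0.24 ± 2.03 SE with all 6 libraries (limma adjusted p = 0.98) and 2.55 ± 0.30 SE without Control 4 (limma adjusted p = 0.0070). Control 4 kept the highest Control kappa sum when Igkv1-88 was left out, at 8741 TPM, against 2419 TPM in Control 5 and 3678 TPM in Control 6.

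Igkv10-96 was the most abundant segment on average. It had 1198, 507 and 420 TPM in Onway 1, Onway 2 and Onway 3, against 515, 103 and 160 TPM in Control 4, Control 5 and Control 6. The groups overlapped through Control 4, and the log2 fold change was 1.63 ± 0.70 SE (limma adjusted p = 0.40). Its share of the kappa sum did not overlap, at 7.55%, 6.78% and 5.02% in Onway and 4.63%, 4.22% and 4.32% in Control. Igkv1-88 held 21.4% of the Control 4 sum, which was 8741 TPM without it, against 8235 TPM in Onway 3. On those sums the share of Igkv10-96 overlaps, with Control 4 above Onway 3. Igkv10-94, its printed relative, was lower throughout, at 150, 74.4 and 50.7 TPM in Onway and 31.9, 12.8 and 45.5 TPM in Control.

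Among the other abundant segments, Igkv3-5 was the one besides Igkv4-61 whose groups did not overlap. It stood at 797, 214 and 303 TPM in Onway, against 212, 70.8 and 109 TPM in Control, with Onway 2 just above Control 4 (log2 fold change 1.65, limma adjusted p = 0.31). Igkv3-7 had 736, 229 and 352 TPM in Onway and 271, 61.7 and 72.8 TPM in Control. Igkv6-20 was led by Onway 1, with 803, 188 and 165 TPM in Onway and 183, 15.6 and 31.0 TPM in Control. Its log2 fold change of 2.67 was the highest of the 10 most abundant segments (limma adjusted p = 0.40), and it was 1.94 without Onway 1, 1.93 without Control 5 and 3.67 without Control 4. Without Control 4 the log2 fold changes of the 10 ran from 1.16 (Igkv1-110) to 3.67 (Igkv6-20).

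Smaller differences were found in the rest of the abundant group, and all of these overlapped. Igkv6-17 had 454, 288 and 365 TPM in Onway and 391, 87.1 and 131 TPM in Control (log2 fold change 1.13). Igkv3-12 had 569, 210 and 303 TPM in Onway and 418, 106 and 136 TPM in Control (log2 fold change 0.86). Igkv1-110, the printed relative of Igkv1-88, had 440, 237 and 223 TPM in Onway and 386, 107 and 151 TPM in Control (log2 fold change 0.63). In Control 4 it was below Onway 1, whereas Igkv1-88 reached 2377 TPM in the same library. Igkv3-4 had 465, 132 and 175 TPM in Onway and 414, 96.4 and 93.9 TPM in Control (log2 fold change 0.50).

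Of the segments without overlap that reached 5 TPM in Onway, the 5 with the largest log2 fold changes were Igkv4-54, Igkv9-124, Igkv12-41, Igkv3-1 and Igkv4-61. Igkv4-54 had 69.1, 19.0 and 33.1 TPM in Onway 1, Onway 2 and Onway 3, against 11.2, 0.84 and 1.58 TPM in Control 4, Control 5 and Control 6 (log2 fold change 3.23 ± 0.85 SE, limma adjusted p = 0.17). On annotated transcripts alone its log2 fold change was 2.09 (limma adjusted p = 0.37), with 4.44, 18.6 and 27.3 TPM in Onway and 7.29, 0.84 and 1.58 TPM in Control, which overlap. Igkv9-124 was the most even within Onway, at 28.7, 30.1 and 27.3 TPM, against 3.93, 0 and 10.1 TPM in Control. Its log2 fold change was 2.97 ± 0.88 SE with all libraries (limma adjusted p = 0.22) and 2.01 ± 0.34 SE without Control 5, where it is listed at 0 (limma adjusted p = 0.020).

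Igkv12-41 was highest in a single Onway library, at 636 TPM in Onway 1 beside 76.4 TPM in Onway 2 and 59.7 TPM in Onway 3, against 39.4, 30.6 and 19.2 TPM in Control. Its log2 fold change of 2.29 was 1.21 without Onway 1 and 0.47 on annotated transcripts alone (limma adjusted p = 0.95), where the groups overlapped. Igkv3-1 had 50.6, 13.3 and 29.9 TPM in Onway and 2.19, 4.34 and 13.01 TPM in Control, so that Onway 2 and Control 6 nearly met. Igkv4-61 had 487, 266 and 373 TPM in Onway and 212, 27.8 and 113 TPM in Control (log2 fold change 2.04 ± 0.75 SE, limma adjusted p = 0.32), with 1.23 on that scale without Control 5. The lowest adjusted p of all members was 0.088 (limma), for Igkv1-131, a rare segment at 1.35 to 3.07 TPM in Onway and at most 0.86 TPM in Control. It passed the filter only through its Onway values, in which it had to be the higher, so its p and its place among the 14 are no support. Igkv12-38 is listed at 0 in Control 5 and Control 6, so without Control 4 it also passed through Onway alone. The same holds for Igkv1-132, one of the 6 called without Control 4 and Onway 3. The calls of both are no support either.

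**Figure D3:**
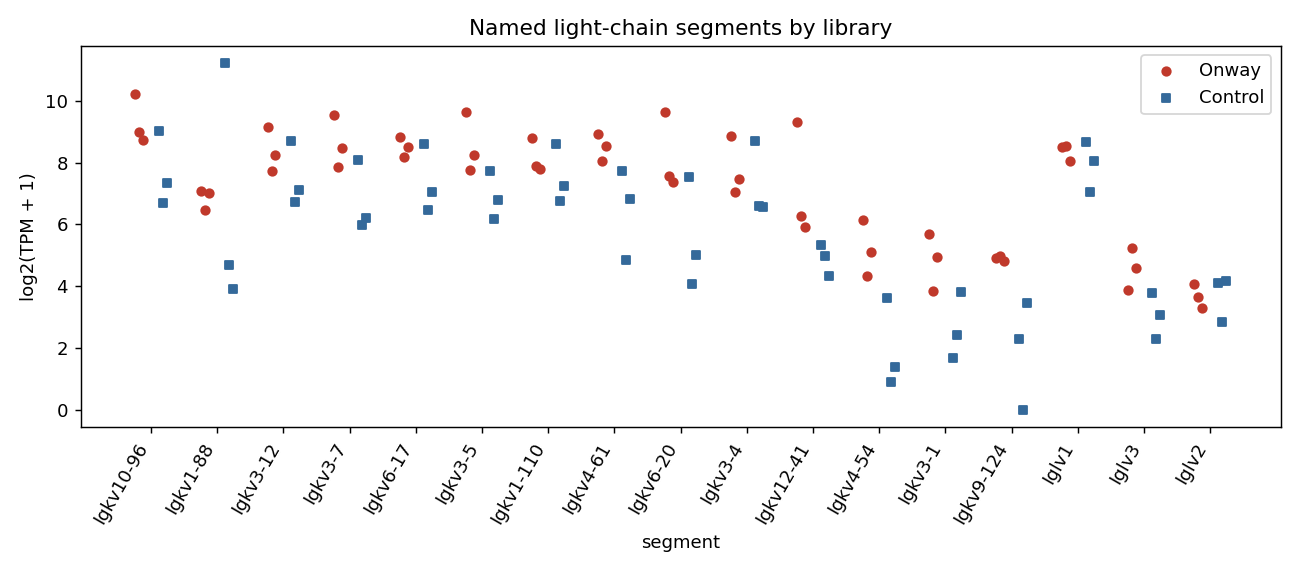
Levels of the 14 named kappa segments and the 3 lambda segments as log2(TPM + 1) in each library; red circles are Onway libraries and blue squares Control libraries, in library order from left to right. Igkv1-88 in Control 4 (2377 TPM) is the highest point, and Igkv9-124 has the tightest Onway values (27.3 to 30.1 TPM).

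The lambda locus was carried by Iglv1, at 360, 369 and 266 TPM in Onway 1, Onway 2 and Onway 3, against 408, 130 and 266 TPM in Control 4, Control 5 and Control 6. Onway 3 and Control 6 had the same level, and the log2 fold change was 0.44 ± 0.41 SE (limma adjusted p = 0.71). Iglv2, its near copy, was at 15.9, 11.7 and 8.71 TPM in Onway and 16.3, 6.21 and 16.9 TPM in Control (log2 fold change -0.03). Iglv3, which was 57.7% identical to its closest member and shared no 50-base window with any, had 13.6, 36.7 and 23.3 TPM in Onway, against 12.7, 3.90 and 7.36 TPM in Control. Each Onway library was above each Control library for Iglv3, though Onway 1 barely exceeded Control 4 (log2 fold change 1.52 ± 0.48 SE, limma adjusted p = 0.22).

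Kappa segments fall into families of similar sequence, the first number in their names. Igkv3 was among the leading families, with 22.3%, 15.3% and 18.3% in Onway and 14.8%, 19.3% and 17.0% in Control, overlapping fully. Igkv6 held 21.3%, 17.5% and 21.9% in Onway 1, Onway 2 and Onway 3, against 14.4%, 12.0% and 13.2% in Control 4, Control 5 and Control 6. All Onway libraries were above all Control libraries for Igkv6, on average by 7.02 percentage points (exact permutation p = 0.1, 0.4 after Benjamini-Hochberg adjustment over 20 families). Igkv1-88 held 21.4% of the Control 4 kappa sum and so lowered the other Control 4 shares. Without it that sum was 8741 TPM, against 7402 TPM in Onway 2. Igkv6 had 1600 TPM in Control 4 and 1310 TPM in Onway 2, so the groups overlap on those sums.

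Igkv1 ran the other way, with 6.63%, 12.3% and 9.80% in Onway, against 30.5%, 15.3% and 13.5% in Control. Most of the Control 4 share was Igkv1-88, yet Control 5 and Control 6, where that segment was rare, also lay above every Onway library (exact permutation p = 0.1, adjusted 0.4). Igkv10 held 8.51%, 7.80% and 5.63% in Onway and 4.94%, 4.76% and 5.59% in Control, so Onway 3 and Control 6 nearly touched. Igkv12 held 7.74%, 5.33% and 4.65% in Onway and 3.57%, 4.37% and 3.29% in Control, again without overlap. Igkv4, the family with the most segments (33), held 12.8%, 15.3% and 16.9% in Onway and 11.3%, 14.1% and 19.1% in Control. Igkv8 held 5.05% to 7.21% in Onway and 3.15% to 8.70% in Control. Of the 20 families, 4 had every Onway share above every Control share and 1 had every Onway share below. By level rather than share, 6.95% of all genes tested were above in this way and 11.5% below. For any 1 family, 1 of the 20 assignments of libraries separates the groups in a given direction, so 1 below is no more than that. Family shares sum to a fixed total and are not independent. These counts rest on sums that include Igkv1-88. On sums without it, Control 4 lies above an Onway library for Igkv6, Igkv10 and Igkv15, which are among the 4.

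**Figure D4:**
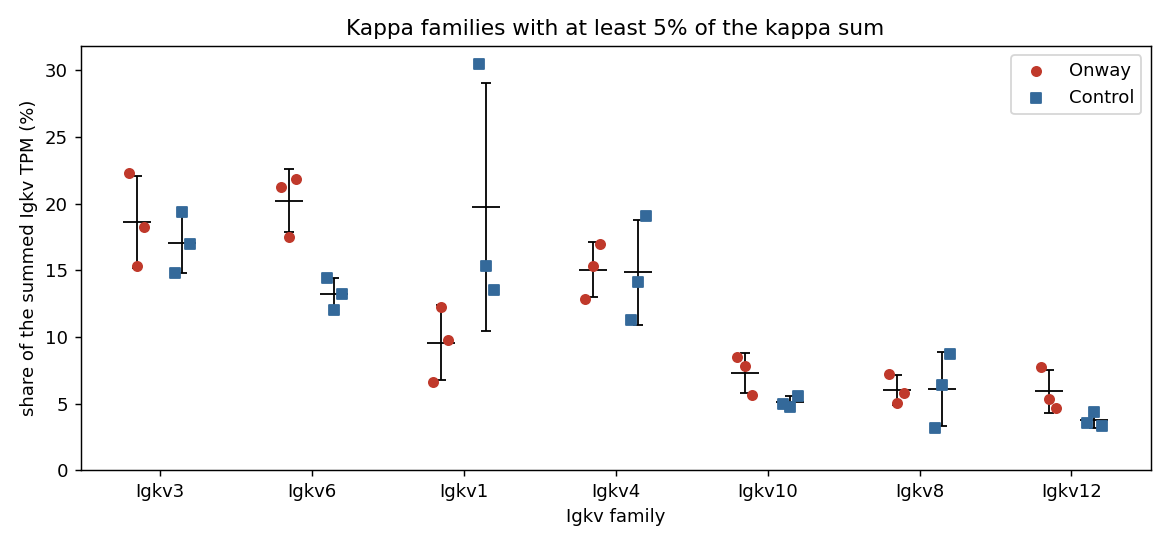
Share of the kappa V sum (%) held by each Igkv family with at least 5% over the 6 libraries; red circles are Onway libraries, blue squares Control libraries, and black lines group means with SD. Igkv6 shares are 17.5% to 21.9% in Onway, above 12.0% to 14.4% in Control, and the Igkv1 point at 30.5% is Control 4. The Control 4 shares are of a sum in which Igkv1-88 held 21.4%.

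At the level of segments, shares of the kappa sum were above every Control library in every Onway library for 10 of the 103 tested kappa segments (9.71%) and below for 4 (3.88%). By level rather than share, 6.95% of all genes tested were above in this way and 11.5% below. For any 1 segment, 1 of the 20 assignments of libraries separates the groups in a given direction, and 3.88% does not exceed that. Those below were Igkv3-12, Igkv1-110, Igkv8-27 and Igkv11-125, named after their values were seen, and no result is drawn from them. Igkv8-27 held 0.271%, 0.201% and 0.492% in Onway, against 0.606%, 1.52% and 0.808% in Control. These shares sum to a fixed total within a library, so a higher share of one segment lowers the rest. Both counts rest on sums that include Igkv1-88, which held 21.4% of the Control 4 kappa sum. On sums without Igkv1-88, Control 4 lies above an Onway library for Igkv3-7, Igkv6-20, Igkv10-96, Igkv12-46 and Igkv15-103, which are among the 10. The 4 named segments stay below on those sums.

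The leading segment also differed by library. Igkv10-96 led in Onway 1 (7.55% of the kappa sum) and Onway 2 (6.78%), and Igkv6-32 led in Onway 3 (5.63%). In the Control libraries, Igkv1-88 led in Control 4 (21.4%), and Igkv1-135, a segment at the far end of the locus, led in Control 5 (6.93%) and Control 6 (5.10%). Igkv1-135 was at 177, 207 and 129 TPM in Onway, against 87.0, 169 and 188 TPM in Control, and was lowest in Control 4, the library with the highest Control sum. The 10 most abundant segments of a library took 44.9%, 35.1% and 40.5% of the kappa sum in Onway and 51.9%, 42.8% and 36.3% in Control.

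The effective number of kappa segments, the exponential of the Shannon entropy of their shares, states how many equally used segments would be as diverse. It was 47.1, 58.2 and 54.2 in Onway 1, Onway 2 and Onway 3, against 36.4, 50.6 and 55.8 in Control 4, Control 5 and Control 6. Control 4 was the least diverse library and the groups overlapped (difference 5.57 segments, exact permutation p = 0.6). With Igkv1-88 left out, Control 4 stood at 49.9 and the difference was 0.61 segments. The number of light-chain segments at 1 TPM or more was 102, 105 and 102 in Onway, against 99, 83 and 87 in Control, without overlap (exact permutation p = 0.1). Read depth, on which such a count depends, is unknown.

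Along the kappa locus the segments lie upstream of the J segments on chromosome 6, in both orientations. A V segment in the orientation of the J segments joins by deleting the DNA between them, and one in the opposite orientation joins by inversion. The 50 segments within 1000 kb of Igkj1 held 61.2%, 46.5% and 53.4% of the kappa sum in Onway, against 38.7%, 48.9% and 47.0% in Control. Onway 1 had the highest share near the J segments and Control 4 the lowest, and the groups overlapped (exact permutation p = 0.3). The Control 4 share is lowered by Igkv1-88, which held 21.4% of its sum and lies outside this interval. The 57 segments between 1000 and 2000 kb held 15.4% to 21.1% in Onway, against 36.1% in Control 4, where Igkv1-88 lies 1860 kb from Igkj1, and 17.4% and 21.7% in Control 5 and Control 6. The 53 segments beyond 2000 kb held 23.3%, 34.3% and 25.6% in Onway and 25.2%, 33.7% and 31.3% in Control.

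Median log2 fold changes of tested segments were 1.42 in the near interval (41 segments), 0.85 in the middle one (31) and 1.01 in the far one (31). Segments on the minus strand, opposite to the J segments, were 85 of 160 and held 58.7%, 54.6% and 57.2% of the kappa sum in Onway and 61.3%, 47.4% and 54.0% in Control (exact permutation p = 0.6). Segments annotated as pseudogenes held 0.211%, 0.288% and 0.490% of light-chain V TPM in Onway and 0.312%, 0.392% and 0.117% in Control.

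**Figure D5:**
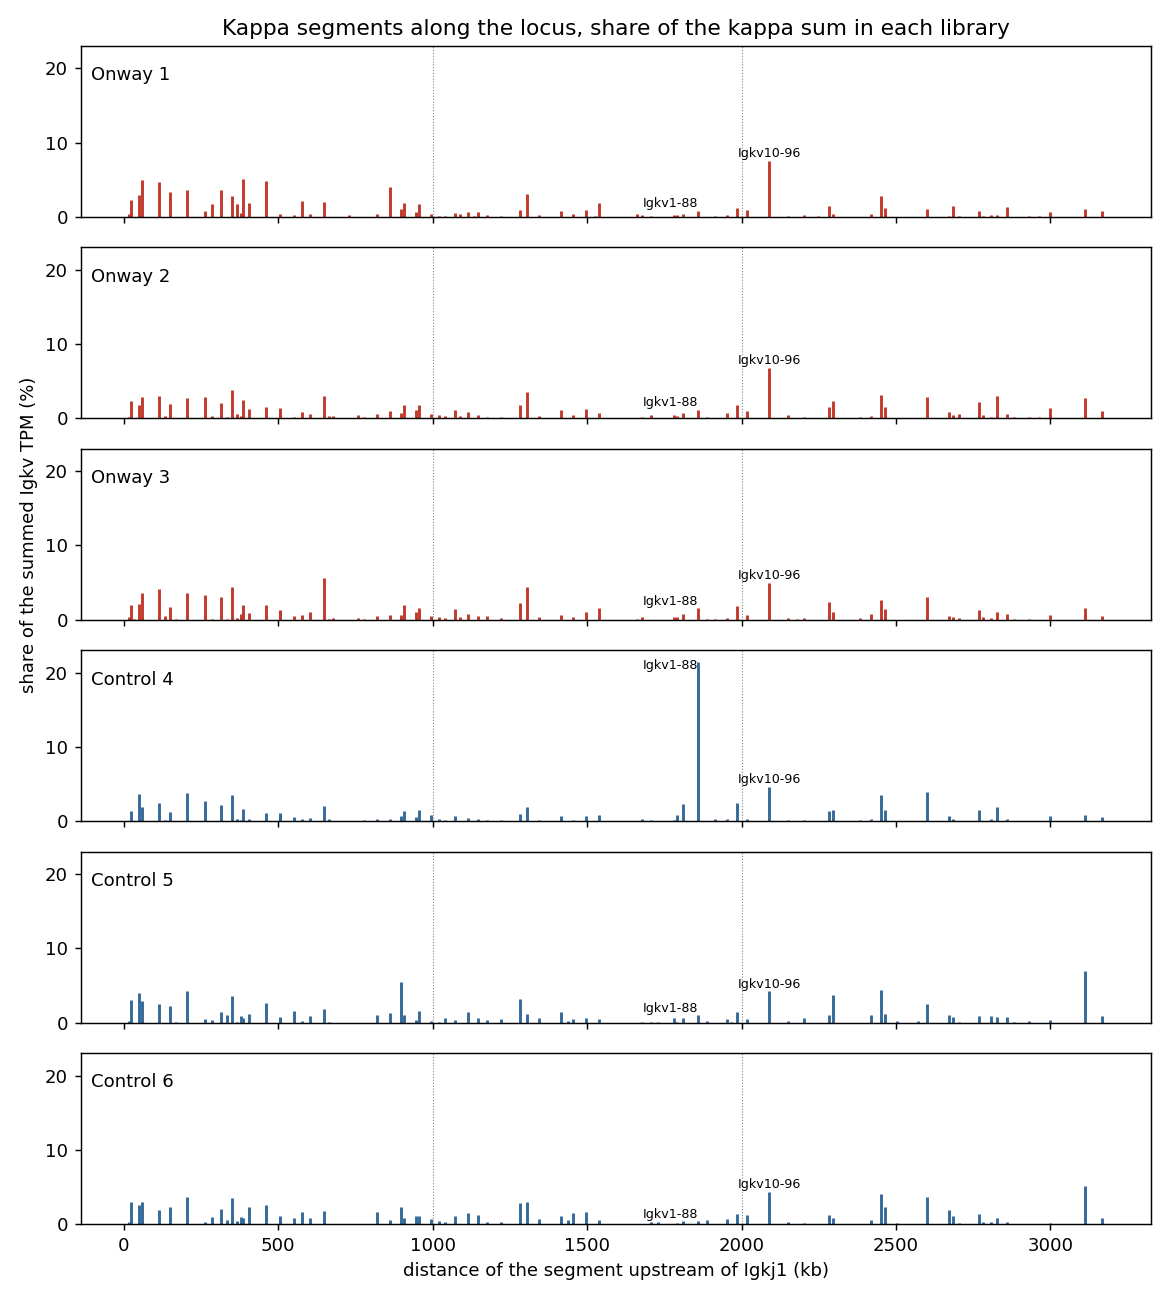
Share of the kappa V sum (%) of each kappa segment against its distance upstream of Igkj1 (kb), with 1 panel for each library (red Onway, blue Control); dotted lines mark 1000 and 2000 kb. The single tall line in Control 4 is Igkv1-88 at 21.4%, which is 0.383% to 1.53% in the other libraries.

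Genes of the cells that make light chains were set beside the segments from lists of B lineage, plasma cell and recombination genes, of which 0 members were called in either direction, beside 0.233% higher and 2.99% lower among all genes tested, of which 53.6% had a positive log2 fold change. The sum of the 22 B lineage genes was 972 TPM in Onway 1, 2088 TPM in Onway 2 and 2065 TPM in Onway 3, against 881, 705 and 750 TPM in Control 4, Control 5 and Control 6. All Onway libraries were above all Control libraries (exact permutation p = 0.1), 21 of the 22 had positive log2 fold changes, and the median was 1.32. Onway 1, the library with the most kappa V RNA, had the lowest Onway B lineage sum, and the part of B lineage RNA in the segment levels was not tested. Cd74, the invariant chain of antigen presentation, had 189, 315 and 490 TPM in Onway and 179, 75.1 and 139 TPM in Control (log2 fold change 1.31, limma adjusted p = 0.25). Cd37, a tetraspanin of mature B cells, had 229, 274 and 215 TPM in Onway and 140, 198 and 199 TPM in Control.

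Kappa V TPM per B lineage TPM was 16.3, 3.59 and 4.05 in Onway and 12.6, 3.47 and 4.93 in Control. Onway 1 and Control 4 stood together above the other 4 libraries in this measure, across the groups. Heavy-chain constant genes, looked at after that pattern was seen, did not share 1 order. Ighg1, the constant gene of IgG1 antibodies, was at 3669 TPM in Onway 1 and 885 TPM in Control 4, beside 456 and 540 TPM in Onway 2 and Onway 3 and 173 and 188 TPM in Control 5 and Control 6. Ighm, of IgM, had 632, 1180 and 1045 TPM in Onway and 1142, 389 and 391.9 TPM in Control, with Onway 1 the lowest Onway library, and Igha, of IgA, had 839, 681 and 1042 TPM in Onway and 792, 300.0 and 603 TPM in Control. Jchain, the protein that links secreted IgM and IgA, had 521, 319 and 385 TPM in Onway and 376, 132 and 211 TPM in Control (log2 fold change 0.87, limma adjusted p = 0.41). Hsp90b1, a chaperone of the secretory pathway, had 200, 285 and 153 TPM in Onway and 192, 231 and 188 TPM in Control. Of the 14 plasma cell genes tested, of 16, 10 had positive log2 fold changes, with a median of 0.17.

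For surrogate light chain and recombination genes, 13 of the 15 tested had positive log2 fold changes, with a median of 0.31. Igll1, which encodes a part of the surrogate light chain of pre-B cells, had 41.2, 69.0 and 84.6 TPM in Onway and 27.7, 84.6 and 27.7 TPM in Control. Hmgb1, a DNA-bending cofactor of RAG cleavage, had 338, 405 and 338 TPM in Onway and 299, 328 and 262 TPM in Control (log2 fold change 0.28, limma adjusted p = 0.56). Heavy-chain V segments were, like the light-chain ones, highest in Onway 1 and next in Control 4, at 8318, 4046 and 4036 TPM in Onway and 5205, 1358 and 2035 TPM in Control. Light-chain V TPM per heavy-chain V TPM was 1.95, 1.95 and 2.15 in Onway and 2.22, 1.90 and 1.96 in Control (exact permutation p = 0.8).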

How the data were processed

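RNA-seq of 3 Onway and 3 Control libraries of bone marrow cells was used, grouped by their titles. Per the labels' protocols, RNA was isolated on columns and libraries were built with the SMARTER mRNA-Seq kit. Builds GRCm38 and mm10 are named in the submitters' processing notes, with the aligner and quantifier not given in the sources used here. TPM was deposited by the authors for 158850 transcripts, including newly assembled models, and a group mean that also took in a further value not analysed here as a library. The Onway columns carry another prefix than the titles and were matched by number.

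TPM was summed over transcripts of a gene. Genes averaging 1 TPM or more over the 6 libraries were tested as log2(TPM + 1), which understates changes of low genes, with limma 3.58.1 (mean-variance trend, robust moderation, no covariate) in R 4.3.3, Benjamini-Hochberg adjustment over all 14192 genes tested and a threshold of 0.05. Standard errors (SE) are limma's. Single values per library were compared by a two-sided exact permutation test over the 20 assignments. The procedure was tested on simulated data. Named segments are the 10 kappa segments of highest mean, all lambda segments, and the 5 per direction of largest log2 fold change without overlap and with at least 5 TPM; no segment met the rule for lower values. From the companion lists (light-chain constant and joining, surrogate light chain and recombination, B lineage, plasma cell), light-chain constant genes and the 2 most abundant genes of each list are named. Marker lists of other cells are given as sums. Identity and shared windows were computed from GENCODE M21 transcripts. Members, lists and the rule were chosen with earlier results of these data known.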

Additional observations from a re-analysis of the deposited data

How the results depend on the processing

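No light-chain segment was called lower under any alternative run. The number called higher was 0 with all libraries and 0 to 14 when single libraries were left out, with the 14 found without Control 4. An alternative chosen after seeing the data left out Control 4 and Onway 3, the libraries with the most haemoglobin, and gave 6 segments, 5 of them among the 14. Over all genes 457 were called, 203 with a filter of 5 TPM, 304 without Control 4 and Onway 3, and 262 to 488 without single libraries. The log2 difference of the kappa sum ranged from 0.64 to 1.73, and that of the kappa to lambda ratio from 0.33 to 0.92, without single libraries, but was -0.20 for the constant genes. The difference in effective segment number ranged from -0.049 (without Control 4) to 9.68 and was -0.60 without Control 4 and Onway 3. Log2 fold changes of named segments that turned sign without single libraries ranged from -1.10 to 2.55 for Igkv1-88, -0.033 to 1.21 for Igkv3-4, -0.0048 to 0.82 for Iglv1, and -0.46 to 0.19 for Iglv2, which was 0.37 without Control 4 and Onway 3. The cause was not tested. On annotated transcripts alone Igkv3-12, Igkv6-17 and Igkv3-4 fell under the filter and gave no value. No paired analysis was possible because the groups share no replicate numbers.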

Other observations

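The number of values behind the authors' deposited group means is not stated. It was taken as 4 each, 1 more than the libraries analysed. With 4, no transcript had a mean too small for the 3 libraries of its group, but a larger number would also pass that check. In the authors' deposited table the mean kappa V sum was 9162 TPM in Onway and 6014 TPM in Control, and the mean lambda V sum was 334 TPM in Onway and 309 TPM in Control. What 4 times the mean leaves beyond the 3 libraries was 4935 TPM of kappa V in Onway and 6802 TPM in Control. That order is opposite to the means of the 3 libraries, and it depends on the number of values taken. The same remainder for lambda V was 228 TPM in Onway and 370 TPM in Control, and its kappa to lambda ratio was 21.6 in Onway and 18.4 in Control. For Igkv1-88 the remainder was 59.8 TPM in Onway and 40.5 TPM in Control, against 2377 TPM in Control 4. These remainders entered no test.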
